A study of Mus musculus with 3 samples.

Results

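Exonic parts of exactly 3 bases at the edge of an exon were described in mouse hearts carrying the Rbm20 I538T allele. An exonic part is a stretch of exon that is covered or skipped as a unit by the transcripts of a gene. A member was a part of 3 bases that belonged to 1 gene, touched exactly 1 other part of that gene and had at least 20 reads in each library. Of 469293 parts, 429043 belonged to 1 gene and 4625 of these were 3 bases long. Among the 4625, 33 touched no other part, 1847 touched a part on both sides and 2745 touched exactly 1 part. The read minimum left 677 members in 624 genes. Just outside it, 16 parts had 19 reads in their shallowest library, and just inside it 7 had 20.

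Rbm20 encodes a heart and muscle splicing regulator that binds RNA and represses the use of exons of titin and other muscle genes. The I538T allele, a T-to-C base change at coding position 1613 of Rbm20, lies in the RNA-recognition motif and was placed in C57BL/6J mice by CRISPR/Cas9. The 3 libraries came from wild-type, heterozygote and homozygote hearts at 12 weeks of age, 1 library per genotype and with no treatment in the labels. Columns for a later age had no sample record and were not analysed here, so no comparison of ages was made. With 1 library per genotype there was no replicate check, no p-value was computed, and all intervals cover counting error of the reads only.

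Most splice acceptors end in the bases AG. Where AG follows AG at a distance of 3 bases, in the pattern NAGNAG with N for any base, the spliceosome can cut after either one and the mRNA gains or loses 3 bases. Such tandem acceptors are among the commonest alternative splice sites of mammals, and in coding sequence they change the protein without shifting the reading frame. At tandem donors the same choice is made at the exon end, where introns begin with GT. PSI, percent spliced in, is the share of transcripts that keep the part, here estimated from inclusion reads over it and exclusion reads that splice across it, each divided by its number of possible read positions (132 and 129).

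The sequences below show the acceptor classes and the parts on which the results turn. Each is mRNA sequence of a GENCODE M21 transcript of GRCm38 that keeps the part, written 5′ to 3′ with 12 bases on either side. Capitals mark the 3 bases that are kept or skipped, and the coordinates are those of the 3 bases. For acceptors the 12 bases before them are the end of the upstream exon. Intron bases were not read.
Myh6 (chr14:54942002-54942004, minus strand): attggtgccaagCAGaagatgcacgac
Mff (chr1:82735416-82735418, plus strand): caaagcgaagagCAGagccgagcagtt
Nfix (chr8:84726603-84726605, minus strand): tccttccaccagCAGcaccaagcgccc
Dbn1 (chr13:55474559-55474561, minus strand): gaggggacccagCAGgccagcgaagga
Usp48 (chr4:137615713-137615715, plus strand): aggaagatctagCAGaaccttctaaat
Gnas (chr2:174341650-174341652, plus strand): gtttaacggagaTAGtgagaaggccac
Gata4 (chr14:63204756-63204758, minus strand): accccaatctcgTAGatatgtttgatg
Odf2 (chr2:29912566-29912568, plus strand): cactgcaaagagAAGgattccgagaga
Aldh2 (chr5:121579742-121579744, minus strand): gaagggaacaagGAGgacgtagacaag
Uchl5 (chr1:143799921-143799923, plus strand): caacttgcagagGAGgaacccatggat

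The next sequences show a pair of Ank3 acceptors preceded by the same 12 bases, an acceptor in Sh3bgr that lacks the AG ending, and 2 donors. They are written in the same way, and for the donors the capitals are the last 3 bases of the longer exon.
Ank3 first acceptor (chr10:70006800-70006802, plus strand): tcagagcctaagCAGgtcaaaagcccg
Ank3 second acceptor (chr10:70015568-70015570, plus strand): tcagagcctaagCAGggagaaggctat
Sh3bgr (chr16:96224474-96224476, plus strand): acaacaggagagACGgaagaggcacca
Sorbs2 (chr8:45799799-45799801, plus strand): ccagaaaaagagGTGaaattgcctgca
Nfu1 (chr6:87020840-87020842, plus strand): cgggagaagcagGTAgctctgaggaag

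The rule took parts by length and position alone, and not every member was an annotated alternative splice site. In GENCODE M21, 334 members were alternative acceptors and 23 were alternative donors, together 52.7% of the 677. Another 256 lay at the start or end of a transcript and 64 at another kind of edge. Of the 334 acceptor parts, 331 ended in AG, and the exceptions were in Eftud2, E2f5 and Sh3bgr. Of the 23 donor parts, 22 began with GT. Of the 357 annotated acceptors and donors, 301 lay in coding sequence, 33 in 5′ UTRs, 9 in 3′ UTRs and 14 in noncoding transcripts. The 3 bases began at a codon boundary in 127 of the coding parts and spanned a boundary in the others.

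Total inclusion reads were 149633524 (wild-type), 157178099 (heterozygote) and 157990953 (homozygote). Median depth per member was 94, 94 and 88 reads, with a highest value of 34880. A table of exonic parts does not show a point mutation, so the genotype labels could not be checked, and the level of Rbm20 was similar across the libraries (37.2, 36.004 and 40.6 CPM, the inclusion reads of a gene scaled to the library total). The 7 cardiomyocyte markers found in the table summed to between 57810 and 64793 CPM in the 3 libraries. All 10 markers of small intestine, an organ other than the labelled one, were highest in the wild-type, where they summed to 30.3 CPM against 0.700 and 0.627 in the heterozygote and homozygote. The 5 blood markers were lowest in the heterozygote at 31993 CPM, against 86119 for the wild-type and 107317 for the homozygote. The sum of the 8 immune markers was lowest in the homozygote, at 314 CPM against 503 (wild-type) and 542 (heterozygote). Lyz2 made up most of that sum, at 383, 438 and 239 CPM in the wild-type, heterozygote and homozygote. Of the 8, 6 were highest in the wild-type, and Cd79a was lowest in the heterozygote. The 6 smooth muscle and pericyte markers summed to 207, 311 and 246 CPM, and 5 of them were lowest in the wild-type. In bulk tissue, fewer cells of a type and less RNA per cell cannot be told apart, and the part of these cell types in the results was not tested. The comparison of homozygote with heterozygote does not use the wild-type library.

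Members were used in both forms far more often than other exonic parts. Both forms were counted as present when the 3 libraries together held at least 5 inclusion and 5 exclusion reads and a pooled PSI from 5% to 95%. This held for 316 of 677 members (46.7%) against 18711 of 177145 parts of any length with the same read minimum (10.6%). The 177145 parts include the members, and 103497 of them were never skipped. The rule took short parts at exon edges, where transcripts often differ in their boundary, so part of this gap follows from the rule. Of the other members, 142 were never skipped, 55 were never included and 164 had 1 rare form. Among annotated alternative acceptors and donors, 280 of 357 had both forms, and among members at transcript starts or ends 24 of 256 did.

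Among acceptor parts, the level of PSI differed with the first of the 3 bases, which is the base before the second AG. CAG parts were the most numerous, and 203 of 228 were used in both forms, with median PSI of 53.0% (wild-type), 54.6% (heterozygote) and 53.4% (homozygote). For the 33 TAG parts the medians were 76.1%, 76.0% and 76.6%, and 27 had both forms. For the 52 AAG parts the medians were 90.6%, 87.6% and 88.0%, and 33 had both forms. For the 18 GAG parts the medians were 99.1%, 99.4% and 97.6%, and 3 had both forms. The order by first base (cytosine, thymine, adenine, guanine) was the same in each library. Among parts with both forms the order held in the wild-type and heterozygote. It did not hold in the homozygote, where the medians were 69.9% for TAG and 68.2% for AAG. The quartile ranges of CAG and TAG parts overlapped, from 26.3% to 81.3% and from 46.8% to 92.5% in the wild-type, and the difference was not tested.

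**Figure D1:**
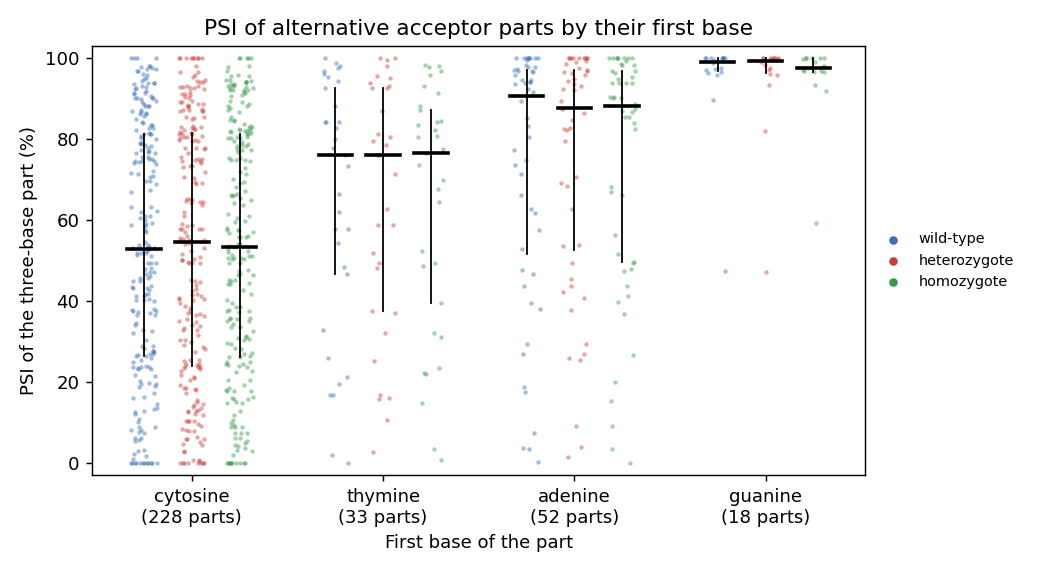
PSI (%) of alternative acceptor parts that end in AG, by the first base of the part and by library (points, 1 per part), with the median (thick bar) and quartiles (line). Cytosine parts spread over the whole range with medians of 53.0%, 54.6% and 53.4%, and guanine parts sit near 100% with medians of 99.1%, 99.4% and 97.6%.

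Single sites show the class pattern. In Aldh2, the mitochondrial enzyme that clears acetaldehyde, 977, 1009 and 836 reads kept the GAG part and 37, 30 and 21 skipped it in the wild-type, heterozygote and homozygote. Its PSI was 96.3%, 97.0% and 97.5%. In H3f3a, which encodes the histone variant H3.3, the GAG part was kept at 97.3%, 97.5% and 96.7%, although its sequence is shared with another gene and reads could be split between copies. Uchl5, a deubiquitinase of the proteasome, stood away from the other GAG parts, at 47.3%, 47.3% and 59.3% in the same order. The homozygote was 12.0 points above the wild-type (95% interval 0.558 to 23.2).

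The deepest sites with a balanced use of both forms changed little between genotypes. Myh6, the main myosin heavy chain of the adult mouse ventricle, had the most reads of any member. Its CAG part was covered by 7608, 9608 and 9535 reads and skipped by 19499, 24967 and 25345, again with the wild-type first and the homozygote last. PSI was 27.6%, 27.3% and 26.9%, and the homozygote lay 0.722 points below the wild-type (interval of the difference -1.43 to -0.0175). For Gnas, the stimulatory G protein that couples beta-adrenergic receptors to adenylyl cyclase, the TAG part had PSI of 32.8%, 32.1% and 31.1% from 4906, 5976 and 6407 reads. In its homozygote library, 302 of 4385 exclusion reads also skipped the touching part, against 6 of 3273 in the wild-type and 5 of 4029 in the heterozygote.

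Other deep sites varied by a few points. The part of Mff, the mitochondrial fission receptor, had PSI of 26.95%, 29.95% and 29.72%. In Coro6, a coronin of the actin-binding family, it was 52.9%, 51.0% and 50.3%. In Mrpl55, a protein of the mitochondrial ribosome, the part lies in the 5′ UTR and was kept at 51.8%, 51.7% and 52.3%. The fatty acid transporter gene Cd36 had values of 77.8%, 76.0% and 76.6% for a TAG part of its 5′ UTR, and Fkbp8, a mitochondrial outer membrane chaperone, had 76.8%, 77.7% and 78.8%. Among the 10 deepest members with a pooled PSI between 20% and 80%, those with wider spreads included Ly6e, a membrane-anchored surface protein (57.7%, 58.8% and 52.3%), and Txnip, an inhibitor of thioredoxin (53.1%, 57.8% and 57.6%).

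Across the 316 members with both forms, differences between genotypes centred on 0. The median difference was 0.184 points for homozygote minus wild-type, -0.121 for heterozygote minus wild-type and 0.00302 for homozygote minus heterozygote. Over all 18711 parts with both forms the medians were -0.162, 0.363 and -0.510 points. The median absolute difference was 5.73, 6.64 and 6.15 points for the members and 5.66, 5.92 and 5.91 for all parts. Across the 316 members, Pearson's r of PSI was 0.889 between homozygote and wild-type, 0.894 between heterozygote and wild-type and 0.895 between homozygote and heterozygote. The members of a library share its depth, and the comparisons share libraries.

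A large difference was taken as at least 20 PSI points. In homozygote minus wild-type, 23 of 677 members were higher by this rule and 14 lower (3.40% and 2.07%), where 0.735% and 0.623% of all parts were. In heterozygote minus wild-type the counts were 22 and 13, with 0.775% and 0.601% of all parts, and in homozygote minus heterozygote 18 and 17, with 0.682% and 0.727%. Members hold both forms more often than other parts, so the like comparison is among parts with both forms whose interval of the difference also excludes 0. By that rule 22 of 316 members were higher and 14 lower in homozygote minus wild-type (6.96% and 4.43%), and 5.12% and 4.43% of all parts with both forms were. The counts were 21 and 9 in heterozygote minus wild-type (6.65% and 2.85%, against 5.7% and 4.21%). They were 14 and 15 in homozygote minus heterozygote (4.43% and 4.75%, against 4.72% and 5.3%). These shares lie near those of all parts with both forms.

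Large differences became rarer with depth. In homozygote minus wild-type, 20 of 115 members with 20 to 49 reads in their shallowest library passed the 20 points with an interval without 0. The counts were 9 of 69 at 50 to 99 reads, 5 of 60 at 100 to 199 and 2 of 72 at 200 or more. From the shallowest to the deepest bin these are 17.4%, 13.0%, 8.33% and 2.78% of the members, and 13.3%, 9.02%, 5.98% and 7.42% of all parts with both forms passed. In this comparison the member share was above that of all parts in all bins but the deepest. In heterozygote minus wild-type it was above only in the shallowest bin (18.3% against 14.5%). At 50 to 99 reads it was 7.25% against 8.64% there. In homozygote minus heterozygote it was above below 100 reads and lower at 100 to 199 (5% against 6.04%). These differences were not tested. Of the 72 deep members, 61 differed by less than 10 points in all 3 comparisons and 36 by less than 5. In all, 62 members of 61 genes passed in at least 1 comparison, and 53 of them had fewer than 100 reads in at least 1 library.

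**Figure D2:**
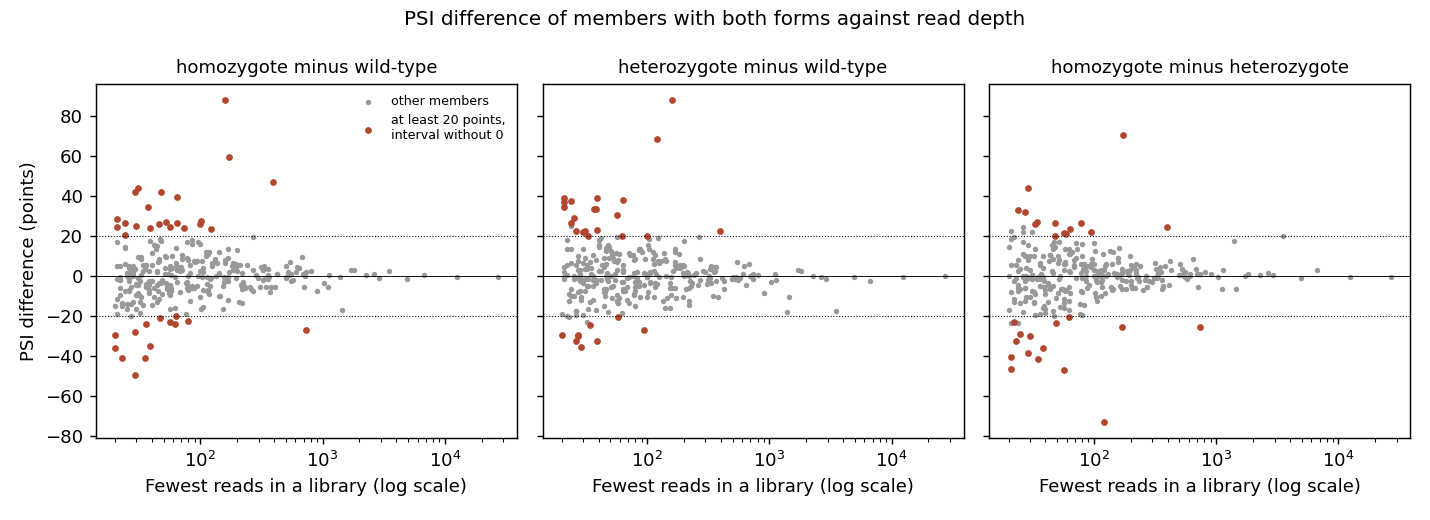
PSI difference (points) of the 316 members with both forms against the fewest reads in any library (log axis), for the 3 comparisons. Red points differ by at least 20 points with a counting interval without 0, and dotted lines mark 20 points. Red points lie mostly at low depth, with 20 of 115 members at 20 to 49 reads and 2 of 72 at 200 or more in homozygote minus wild-type.

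Exclusion reads can skip the 3 bases alone or the touching part as well, and these were told apart by the exclusion reads of the touching part. Reads of the latter kind can come from skipping of the exon, from a more distant splice site or from another transcript end, and these cannot be told apart here. Of the 316 members, 197 had no exclusion read beyond the 3 bases, 68 had some and 51 had at least as many as stayed within the 3 bases. Among the 62 with a large difference, 38 were of the first kind and 13 of the last.

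Several of the widest differences came from reads that skipped the 3 bases alone. In Odf2, which encodes a protein of centriole appendages, the AAG part was covered by 2, 9 and 15 reads and skipped by 50, 25 and 16 in the wild-type, heterozygote and homozygote. PSI was 3.76%, 26.0% and 47.8%, and the homozygote was 44.1 points above the wild-type (23.7 to 63.0). The heterozygote lay between, and its interval of 12.6% to 43.8% overlapped those of both others. A further Odf2 member, at a transcript start or end, was at 0%, 22.7% and 4.35%, with the heterozygote highest. It passed the 20-point rule in heterozygote minus wild-type, and all of its exclusion reads also skipped the touching part. In Dbn1, the actin-binding protein drebrin, 9, 7 and 17 reads covered the CAG part and 46, 41 and 12 skipped it. Its PSI was 16.1%, 14.3% and 58.1%, with the homozygote 42.0 points above the wild-type (18.8 to 61.9) and 43.8 above the heterozygote (20.2 to 63.6).

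Chd6 and Slc4a1ap showed lower PSI in the homozygote. For Chd6, a chromodomain helicase, 36, 31 and 13 reads covered the part and 1, 4 and 10 skipped it. PSI was 97.2%, 88.3% and 56.0%, a difference between homozygote and wild-type of -41.3 points (-63.4 to -17.7). For Slc4a1ap the values were 86.2%, 87.0% and 45.1%, and the homozygote was -41.0 points from the wild-type (-59.5 to -19.9). Both homozygote values lay below the other libraries, and each rested on 35 reads or fewer. Zfp426, a zinc finger gene, was at 93.8%, 83.0% and 44.3%, with 6 of its 16 homozygote exclusion reads also skipping the touching part.

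In Usp48 and Wdsub1 the wild-type differed from both mutants. Usp48, a deubiquitinase, had 32, 30 and 37 covering reads and 35, 7 and 8 skipping reads. PSI was 47.2%, 80.7% and 81.9% in the same order, and the wild-type interval of 34.9% to 59.8% lay below both others. A further CAG part in Usp48 had PSI of 24.0%, 29.2% and 17.8%, and none of its differences excluded 0. In Wdsub1 the values were 57.5%, 77.6% and 83.3% from 112, 100 and 104 reads, with the homozygote 25.9 points above the wild-type (13.2 to 37.6). Apbb2, which encodes a protein that binds the amyloid precursor protein, also had a wild-type apart from both mutants, at greater depth and smaller size. The direction was the opposite one, with the wild-type highest. Its TAG part was at 97.5%, 81.3% and 80.8%, and the homozygote lay -16.6 points from the wild-type (-24.0 to -9.58).

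The heterozygote lay between the wild-type and the homozygote in further members and in some of those already described. Among the 63 members with homozygote and wild-type at least 10 points apart and an interval without 0, the heterozygote was the middle value in 45 (71.4%), of which 25 were higher in the homozygote and 20 lower. Among all parts with both forms under the same rule it was so in 2154 of 3484 (61.8%), and the rule's gap between homozygote and wild-type itself favours a middle heterozygote. Over all 316 members with both forms, 111 had the heterozygote in the middle at any size (35.1%), close to the 32.3% of all parts with both forms. The 45 include Chd6, Wdsub1, the AAG part of Odf2, the TAG part of Apbb2 and the Usp48 part with a large difference. In those of Usp48, Wdsub1 and Apbb2 the heterozygote was closer to the homozygote than to the wild-type. Prkag2, the gamma-2 subunit of the energy sensor AMPK, was at 19.05%, 31.7% and 45.1%. Celf1, a CUG-binding splicing regulator, was at 23.7%, 36.7% and 41.9%. Hgs, a part of the endosomal sorting complex, was at 13.4%, 24.0% and 37.4%, although its sequence is shared with another gene. Pkd1, which encodes polycystin-1, was at 26.3%, 36.3% and 53.3%. Ikbkg, the regulatory subunit of the IkB kinase, went the other way at 89.3%, 79.6% and 66.2%, as did Scamp3, a secretory carrier membrane protein, at 48.0%, 41.2% and 34.96%. In each of these 6 the heterozygote interval overlapped that of at least 1 neighbour in the order.

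**Figure D3:**
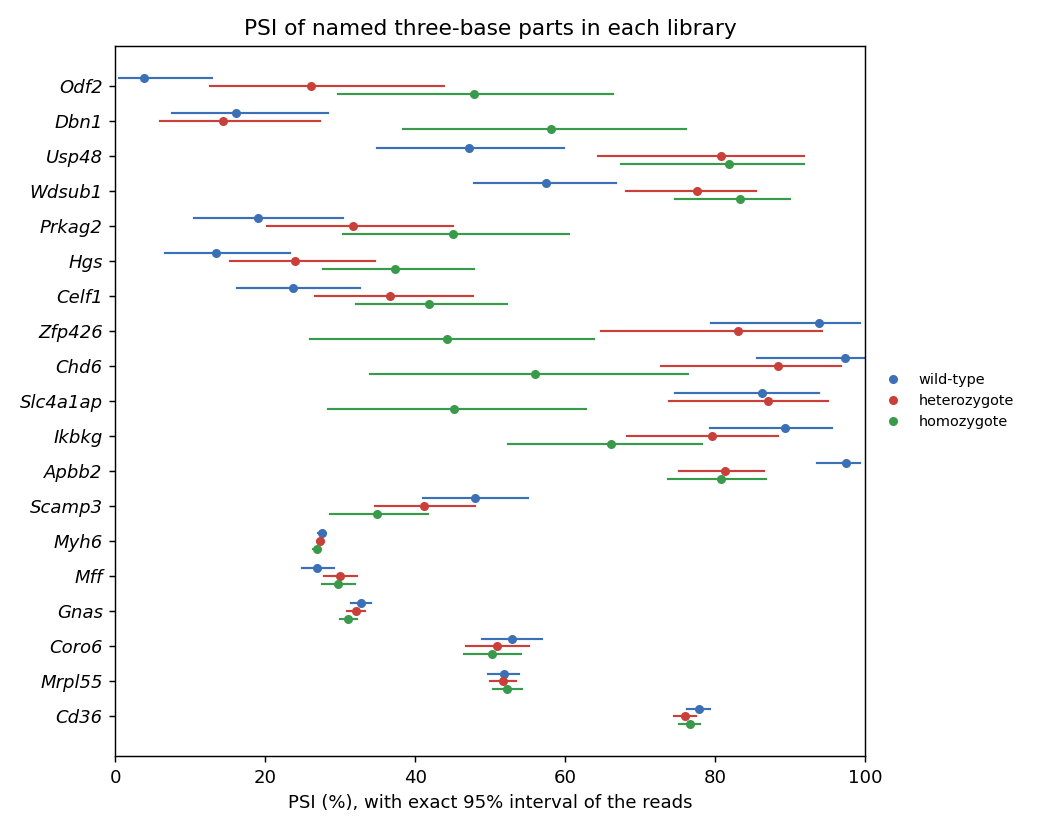
PSI (%) of named 3-base parts in the wild-type, heterozygote and homozygote libraries (points), with exact 95% intervals of the reads (lines). Odf2 and Dbn1 reach 47.8% and 58.1% in the homozygote, Chd6 and Slc4a1ap lie at 56.0% and 45.1%, and the deep sites of Myh6, Gnas and Coro6 show narrow intervals that lie close together.

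In other genes the heterozygote was the highest or lowest library. In Tdg, the thymine DNA glycosylase, the part was never skipped in 65 heterozygote reads, and PSI was 69.7%, 100% and 52.9% in the 3 libraries. Its sequence is shared with another gene. Sbf2, a myotubularin-related gene, was at 53.3%, 92.4% and 77.2%, with the wild-type lowest and the homozygote between, and none of its 3 intervals of a difference included 0. Of the 3 members of Tcf3, an E-protein transcription factor, one had PSI of 61.0%, 33.9% and 55.8%, and another had 43.7%, 52.3% and 53.5%. The values of the remaining one were 36.6%, 33.3% and 20.6%. For the last 2 of these members, every interval of a difference included 0. In Rfc1, a subunit of the clamp loader of DNA replication, PSI was 45.8%, 15.6% and 47.6%, and in Terf2, which encodes a telomere-binding protein, it was 51.4%, 80.3% and 51.1%, each from fewer than 50 reads per library.

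In other members with large differences, many exclusion reads also skipped the touching part. Sh3bgr, an SH3-binding glutamic acid-rich protein of heart and skeletal muscle, is one example. Its ACG part was covered by 730, 860 and 1202 reads and skipped by 2, 15 and 444, and PSI was 99.7%, 98.2% and 72.6%. The homozygote lay -27.2 points from the wild-type (-29.4 to -24.9) and -25.7 from the heterozygote. Of the 444 exclusion reads, 378 also skipped the touching part of 21 bases, whose PSI was 99.7%, 98.4% and 77.4%. The other 66 skipped the 3 bases alone, against 0 in both other libraries, and counted without the reads that skip the touching part the homozygote PSI was 94.7%.

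Ank3 encodes ankyrin-G, an adaptor that anchors membrane proteins to the cytoskeleton. Its first acceptor part was covered by 2, 5 and 23 reads and skipped by 62, 76 and 54, giving PSI of 3.06%, 6.04% and 29.4%. The touching part of 51 bases was at 2.26%, 8.12% and 62.4%, and 62, 73 and 25 of the exclusion reads skipped it too. The reads that skipped the 3 bases alone numbered 0, 3 and 29. The second acceptor part of Ank3, on an exon that follows the same 12 bases in another transcript, had PSI of 79.0%, 81.9% and 93.0%, with no read skipping its touching part. Its homozygote was 14.02 points above the wild-type (1.37 to 27.1).

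Immt, a subunit of the complex that shapes mitochondrial cristae and a known target of Rbm20, had a 3-base part next to a part of 4 bases. This part lay at a transcript start or end, not at an annotated alternative acceptor or donor. It was covered by 5, 22 and 25 reads and skipped by 46, 64 and 23, and every exclusion read also skipped the touching part. PSI was 9.60%, 25.1% and 51.5%, and the homozygote was 41.9 points above the wild-type (23.2 to 57.9). In Gpi1, the glycolytic glucose-6-phosphate isomerase, PSI was 97.0%, 86.5% and 80.1%, at 1446, 1605 and 1613 reads. The Gpi1 part also lay at a transcript start or end. All 42 and all 213 exclusion reads of the wild-type and heterozygote, and 189 of 315 in the homozygote, skipped the touching part.

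In 4 further members the heterozygote stood apart, and every exclusion read also skipped the touching part. Mybpc3, the cardiac myosin-binding protein C of the thick filament, had PSI of 92.3%, 74.7% and 94.5%, with 264, 1368 and 285 exclusion reads. In Nbr1, an autophagy receptor, the part was at 31.8%, 100% and 26.8%, with 338, 0 and 432 exclusion reads. In Sqstm1, which encodes the autophagy receptor p62, it was at 100%, 82.1% and 99.6%, with 0, 302 and 6 exclusion reads. In Cpne8, a copine, the values were 2.39%, 35.96% and 0%, from 41, 74 and 38 reads. The heterozygote was the high library in Nbr1 and Cpne8 and the low one in Mybpc3 and Sqstm1. The parts of Nbr1 and Cpne8 lay at a transcript start or end, and that of Mybpc3 was an annotated alternative acceptor.

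**Figure D4:**
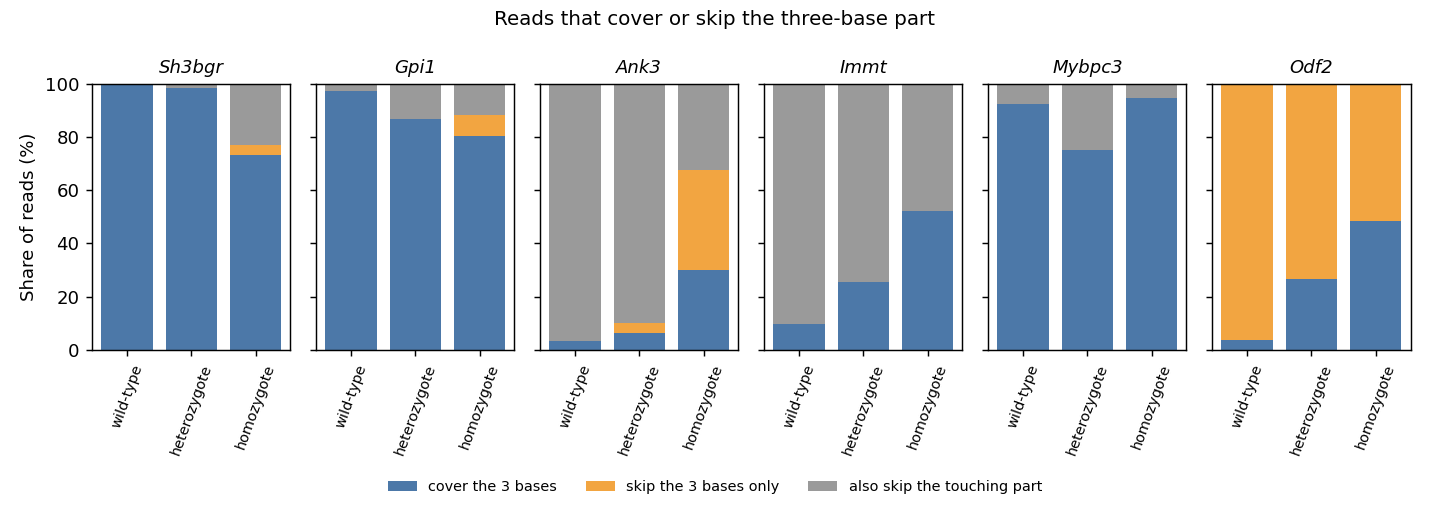
Share (%) of reads that cover the 3 bases, skip the 3 bases only, or also skip the touching part, by library, for 5 members with reads that skip the touching part and for the AAG part of Odf2. In Sh3bgr 378 of 444 homozygote exclusion reads also skip the touching part, in Immt and Mybpc3 all exclusion reads do, and in the AAG part of Odf2 none do.

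Of 35 known Rbm20 target genes in the table, 6 had a member, with 8 members in all and 4 in both forms. Immt was the 1 with a large difference, higher in homozygote minus wild-type and in homozygote minus heterozygote. Its part lay at a transcript start or end and was not an annotated alternative acceptor or donor. The median difference of the 4 was 3.899 points in homozygote minus wild-type, 5.41 in heterozygote minus wild-type and -1.51 in homozygote minus heterozygote, where all 316 members were at 0.184, -0.121 and 0.00302. The 4 differed in sign in homozygote minus wild-type, from -5.63 points in Camk2d to 41.9 in Immt. Camk2d, the delta isoform of calcium/calmodulin-dependent kinase II, had PSI of 17.98%, 19.4% and 12.4% for a part at a transcript start or end, and all of its exclusion reads skipped the touching part. Its homozygote was -5.63 points from the wild-type (-11.7 to 0.227) and -7.05 from the heterozygote (-13.3 to -1.02). Sorbs2, an adaptor of Z-discs, was at 37.5%, 42.7% and 40.3%, and Pdlim5, another Z-disc adaptor, at 88.2%, 93.8% and 93.2%.

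Among genes of the sarcomere, Z-disc and intercalated disc, 5 of 35 had a member and none of the 3 in both forms, Myh6, Mybpc3 and Palld, passed 20 points with an interval without 0. Palld, an actin-bundling protein, was at 2.92%, 15.4% and 6.99% for a part at a transcript start or end. Of the calcium handling and ion channel genes, Cacnb2, the beta subunit of the L-type calcium channel, was at 88.7%, 100% and 93.5%, and no member of this list passed the rule. Mitochondrial membrane genes gave Mff and Vdac3, and neither had a large difference.

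Splicing factor genes held 9 members in 9 genes, with 6 in both forms. In 2 of the 6 the homozygote was lower by the 20-point rule with an interval without 0. Among all parts with both forms 4.43% were lower by that rule. Acin1, a component of the apoptosis and splicing-associated complex, was at 82.7%, 81.3% and 61.5%. Rbm10, an RNA-binding splicing regulator, was at 63.0%, 59.7% and 42.7% for a donor part whose sequence is shared with another gene. Their intervals for homozygote minus wild-type came close to 0, at -38.8 to -1.81 and -36.7 to -2.47. Sf3b2, of the U2 snRNP that recognises the branch point, was at 96.8%, 92.5% and 91.4%, with the homozygote -5.35 points from the wild-type (-9.41 to -1.55). Rbfox2 was at 96.1%, 90.8% and 90.5%, and Ptbp2 at 52.8%, 40.8% and 56.3%. Celf1, also of this list, was at 23.7%, 36.7% and 41.9%, with the homozygote 18.2 points above the wild-type. The 6 thus differed in sign. Their median was -5.47 points in homozygote minus wild-type, and that of all 316 members was 0.184.

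Transcription and chromatin genes held 12 members in 9 genes, 7 of them in both forms. Gata4, a cardiac transcription factor, was at 21.3%, 25.3% and 23.4%, and Nfix, of the nuclear factor I family, at 84.2%, 83.4% and 82.0%. For neither did a difference exclude 0. One member of Tcf4, an E-protein gene, was at 45.7%, 64.5% and 69.2%, and the homozygote was 23.5 points above the wild-type (12.2 to 34.1). The other Tcf4 member was at 93.8%, 90.3% and 92.2%. Ncor1, a nuclear receptor co-repressor, had a member at 37.0%, 74.6% and 51.0%, with 24, 24 and 31 reads, and another at 66.9%, 73.0% and 74.6%. In both genes only 1 of the 2 members had a large difference.

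The 22 donor parts that begin with GT were mostly skipped, with median PSI of 17.3%, 16.7% and 15.8%. Vdac3, a channel of the mitochondrial outer membrane, was the deepest and was mostly kept, at 87.0%, 89.2% and 90.1% from 1819, 2195 and 2013 reads, with sequence shared with another gene. Nfu1, which carries iron-sulfur clusters to mitochondrial enzymes and also shares sequence, was at 8.34%, 8.74% and 10.8%. In Mau2, a cohesin loader, the part was not seen in 75 wild-type reads, which allows a PSI of up to 4.70% (exact interval), and was at 4.45% and 14.8% in the heterozygote and homozygote. Smc5, a core subunit of a DNA repair complex, was at 24.6%, 61.4% and 53.3% from 28, 21 and 26 reads.

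A group of 14 members on chromosome 2, from 175.432 to 178.023 Mb, lay in a cluster of zinc finger genes. Each had the bases ATG at an edge that was neither an annotated alternative site nor a transcript end. This group was chosen after its values were seen. Sequence of 12 of the 14 is shared with other genes, so the authors' aligner could have split reads among near-identical copies and the values are uncertain. Of the 14, 6 had both forms, and in all 6 no homozygote read skipped the part. Gm14288 had 812, 0 and 0 exclusion reads and PSI of 11.9%, 100% and 100%. Gm14419 had 350, 531 and 0, with PSI of 40.4%, 29.3% and 100%, and Gm4724 had 377, 143 and 0, with PSI of 53.0%, 75.6% and 100%. These were the largest positive differences of any member in homozygote minus wild-type, at 88.1, 59.6 and 47.0 points.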

How the data were processed

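Mouse heart RNA was sequenced as 3 SMART-seq v4 libraries, 1 per genotype. The study's text speaks both of representative libraries and of PSI averaged over 3 mice, so the number of animals behind a library is uncertain. According to the submitters' notes the authors used cutadapt 1.1, Trimmomatic 0.32, TopHat2 2.0.14, Bowtie 1.1.1 and the GRCm38 build. The counting program and annotation are not given in the sources used here. The authors deposited raw counts of inclusion and exclusion reads, PSI as a fraction and the length of each part. PSI was recomputed and deviated by at most 5e-05 points from the deposited fraction. The deposited PSI differences between genotypes and 3 columns of other samples were not used. Parts of overlapping genes (40250) were left out.

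Exact Clopper-Pearson intervals (95%) were carried to PSI, and differences were combined by square-and-add. The size rule, tested on simulated reads, was 20 points and 20 reads. The members and lists were chosen with earlier results of these data known. Named genes were those past 20 points with an interval without 0 (in full the 15 widest per comparison), list genes with both forms, ordered members and the 10 deepest balanced members, and examples are given of each. Some other members fell outside these rules and were added as examples, among them Aldh2, H3f3a, Uchl5, Nfu1, Sqstm1 and further members of Usp48, Tcf3 and Apbb2. Results of some named members are not reported here. Edges and bases were taken from GENCODE M21 transcripts, since no genome was used, and bases were read for 548 of 677 members. A part counted as shared when the same bases across it occur in a transcript of another gene. Alternatives were other sizes, read minimums, PSI without length normalisation, an interval without 0, and 3 added after seeing the data. Scripts ran in Python 3.11.15, using scipy 1.17.1, pandas 2.3.3, numpy 2.4.6 and matplotlib 3.10.9.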

Additional observations from a re-analysis of the deposited data

How the results depend on the processing

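Counts of members past the size rule depended on the size and the read minimum. At 20 points and 20 reads they were 37 for homozygote minus wild-type, 35 for heterozygote minus wild-type and 35 for homozygote minus heterozygote. In the same order they were 96, 116 and 102 at 10 points, 13, 15 and 13 at 30 points, 16, 9 and 13 at 50 reads, and 7, 6 and 5 at 100 reads, where fewer members are tested. They stayed within 1.5 times without length normalisation (36, 33 and 36) and with an interval without 0 required (36, 30 and 29). The same held for 3 alternatives chosen after seeing the data, which left out reads that skip the touching part (31, 28 and 24), left out members with shared sequence (31, 31 and 32) or kept annotated acceptors and donors only (31, 28 and 29). Without length normalisation none of the 321 differences of named members changed direction, and the largest moved by 0.572 points. Differences close to 20 points could still cross the rule. In Gigyf2, homozygote minus wild-type went from 20.3 to 19.9 points and so fell below it. No paired analysis was possible because each genotype had 1 library, and for the same reason no library could be left out of a comparison. Depth limits most sites: for Celf1, with 112 wild-type and 99 homozygote reads, the difference of 18.2 points had an interval of 4.92 to 30.9.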
